A study of Cicer arietinum with 24 samples.

Results

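Mature leaf was compared with whole seed at early- (S1), mid- (S2) and late-embryogenesis (S3) in chickpea (Cicer arietinum) cultivar JGK 3. The comparison used 12 of the 24 RNA-seq samples of the series, namely 3 samples each of leaf, S1, S2 and S3. The values were FPKM (fragment counts scaled by exon length and by the mapped fragments of the library), and the 3 samples of a group were given as 1 pooled column, so there were 4 columns. Of 27966 entries with a gene identifier, 18245 reached at least 1 FPKM in any of the 4 columns and were compared. For each entry, the mean of log2(FPKM + 1) over S1, S2 and S3 was subtracted from log2(FPKM + 1) of leaf, so that a positive difference is higher in leaf.

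JGK 3 is a large-seeded cultivar, and all plants were grown in the field. The study followed DNA methylation and gene expression through seed development, and the remaining samples of the series were later seed stages of the same cultivar. Leaves came from mature plants at the time when seeds were in mid-maturation, so leaf and embryogenesis seed differed in organ and also in the time of collection. Seeds were taken whole, so each seed column mixed embryo, endosperm and seed coat, and each sample pooled many seeds. Leaf and seed marker genes could not be examined, because the identifiers used here were not paired with names of such markers. Fewer cells of a type and less RNA per cell cannot be told apart in such bulk samples.

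During embryogenesis the fertilised ovule passes through rapid nuclear and cell division, in which the embryo is patterned and the seed coat and endosperm expand. Entry into DNA replication needs CDC6 and the minichromosome maintenance (MCM) proteins, which are loaded onto replication origins and unwind the DNA. Newly copied DNA is methylated on 1 strand only, and in Arabidopsis the maintenance methyltransferases MET1 and CMT3 restore the mark on the new strand. A mature leaf is largely made of cells that have stopped dividing and carry out photosynthesis.

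Since the columns were pooled, there was no replicate check on any difference below, no test could be run, and differences are reported as counts of entries at least 2-fold apart. Fold limits refer to FPKM + 1, so genes at a few FPKM can be under 2-fold here and yet further apart in FPKM itself. The read depth was unknown. S1, S2 and S3 are successive developmental stages and not replicates, and each of the 3 comparisons used the same leaf column, so agreement among stages is not independent evidence on leaf. Entries with at least 1 FPKM numbered 15657 in leaf, 16142 at S1, 16488 at S2 and 16501 at S3, with medians of 11.4, 12.4, 12.7 and 12.3 FPKM over all entries compared. The summed FPKM was 1300269 in leaf against 940628, 787865 and 934142 at S1, S2 and S3.

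Leaf and embryogenesis seed differed widely, and in most entries the 3 seed stages differed from leaf in the same direction. Against the mean of S1 to S3, 4345 entries (23.8%) were at least 2-fold higher in leaf and 4534 (24.9%) were at least 2-fold lower, 48.7% in either direction. At every one of the 3 stages, 3488 entries (19.1%) were at least 2-fold higher in leaf and 3253 (17.8%) at least 2-fold lower, 36.9% in either direction. Thus the stages agreed for 80.3% of the entries higher in leaf against the mean and for 71.7% of those lower. The remaining entries mostly missed the 2-fold limit at a stage rather than turning direction, since 98.9% of the entries higher and 98.0% of the entries lower were on the same side of leaf at S1, S2 and S3. The balance of higher and lower entries depended on how the columns were scaled. Of the entries apart at all 3 stages, 51.7% were higher in leaf as deposited. This share was 32.8% after equalising the summed FPKM of the 4 columns, 40.1% after equalising their upper quartiles, and 54.9% after scaling by median ratios. These scalings moved the median difference of all entries from -0.12 to -0.58, -0.41 and -0.03, respectively.

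**Figure D1:**
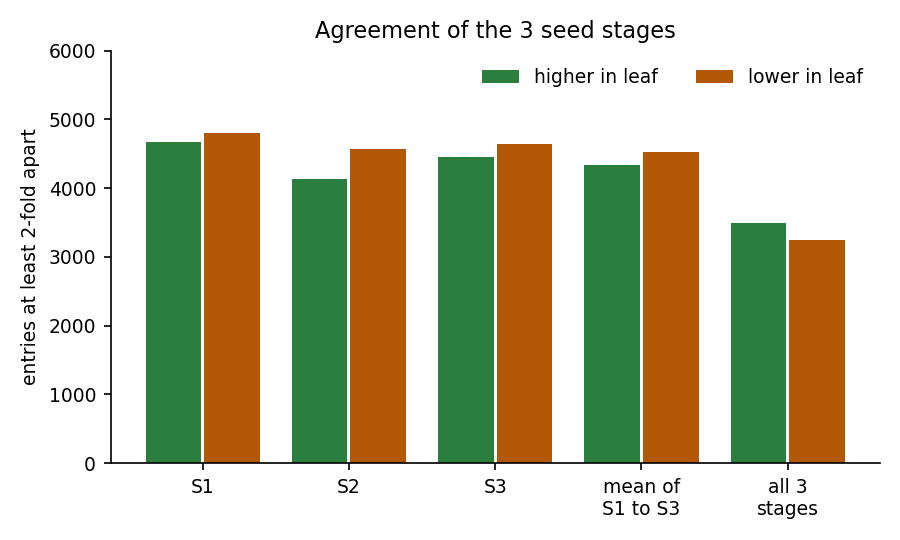
Number of entries at least 2-fold higher (green) or lower (orange) in leaf than S1, S2, S3, the mean of the 3 stages, and all 3 stages at once, of 18245 compared. The counts for all 3 stages, 3488 higher and 3253 lower, are smaller than those for any stage alone.

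Taken stage by stage, the counts were close to each other. Leaf was at least 2-fold higher than S1 in 4666 entries (25.6%), than S2 in 4129 (22.6%) and than S3 in 4454 (24.4%). It was at least 2-fold lower in 4808 (26.4%), 4577 (25.1%) and 4649 (25.5%) entries, respectively. By comparison, the share of entries at least 2-fold apart was 13.3% for S1 against S2, 10.9% for S2 against S3 and 15.3% for S1 against S3. The median size of the difference between leaf and the seed mean was 0.97 on the log2(FPKM + 1) scale, while the median range over S1 to S3 was 0.54. Leaf lay below all 3 seed values in 8079 entries, above all 3 in 7121 and within their range in 3045. Across entries, the correlation of leaf with a seed stage was lower than that between seed stages. Pearson's r on log2(FPKM + 1) was 0.627 for leaf with S1, 0.660 with S2 and 0.631 with S3, against 0.917 to 0.939 between seed stages. These values describe entries that share the same columns and are not independent of each other.

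**Figure D2:**
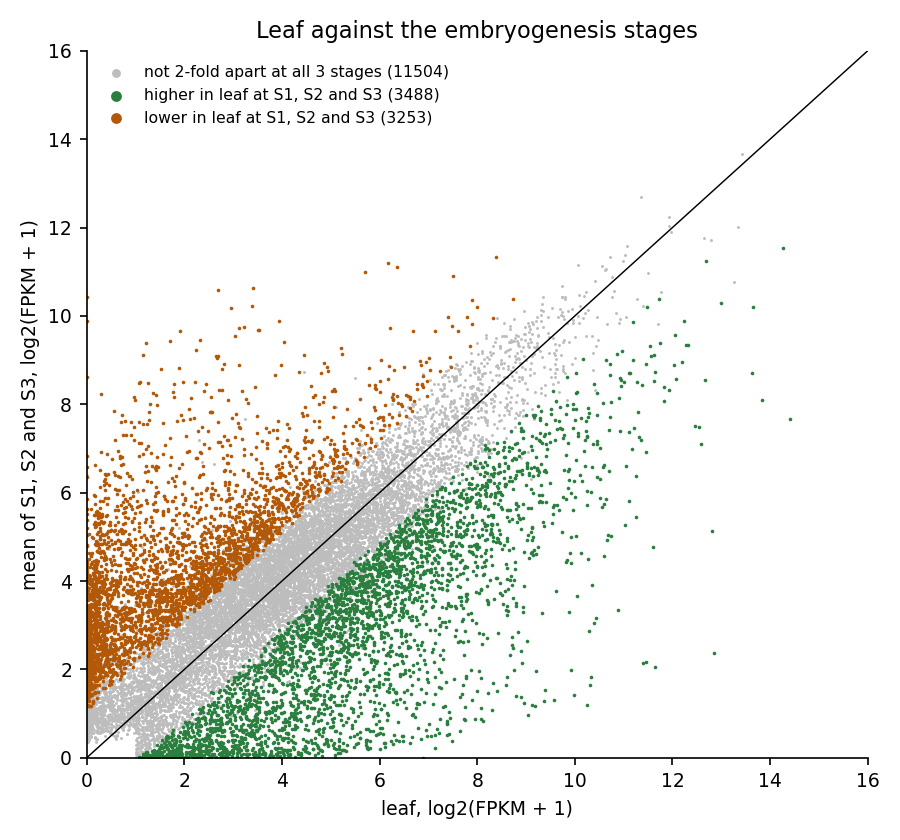
Each point is 1 of 18245 entries, with leaf on the horizontal and the mean of S1, S2 and S3 on the vertical axis, both log2(FPKM + 1), and the line marks equal values. The 3488 entries higher in leaf at all 3 stages (green) lie below the line and the 3253 lower in leaf (orange) above it.

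Where an entry was apart at 2 of the 3 stages, the stage that missed differed with direction. Among entries higher in leaf against the mean, S2 alone was under 2-fold in 376, S3 alone in 235 and S1 alone in 135. Among entries lower in leaf, S1 alone was under 2-fold in 386, S3 in 331 and S2 in 294. A difference at S1 alone was seen in 784 entries lower in leaf and 431 higher, more than at S3 alone (566 and 316) or S2 alone (457 and 200). Entries in which leaf was at least 2-fold above a stage and at least 2-fold below another were few, 91 of 18245 (0.499%).

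At larger fold limits the entries higher in leaf outnumbered those lower on the deposited scale, up to 16-fold. At least 4-fold at all 3 stages, 1664 entries (9.12%) were higher in leaf and 1308 (7.17%) lower. At least 16-fold, these were 347 (1.9%) and 264 (1.45%). At least 64-fold, they were nearly equal, with 40 (0.219%) higher and 39 (0.214%) lower. In recounts added after seeing the data, this order turned with equal sums, where 1121 entries were at least 4-fold higher and 1813 lower, and with equal upper quartiles (1315 and 1603).

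The balance of higher and lower entries changed with abundance. Entries were classed by the midpoint of leaf and the seed mean on the log2(FPKM + 1) scale, expressed as FPKM, which weighs both sides equally. These classes were chosen after the data were seen. From 100 to 500 FPKM, 31.1% of 1273 entries were higher in leaf at all 3 stages and 6.83% lower. Of 241 entries at 500 FPKM or more, 71 (29.5%) were higher and 6 (2.49%) lower. Below 5 FPKM the order was the other way, with 15.3% of 5595 entries higher and 23.9% lower. At 100 FPKM and above, 467 entries were higher and 93 lower as deposited, and the order held in the 3 scalings, with 304 and 242 for equal sums as the closest counts. The 100 most abundant entries of each column took 30.3% of the summed FPKM in leaf, 23.7% at S1, 16.7% at S2 and 26.8% at S3.

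**Figure D3:**
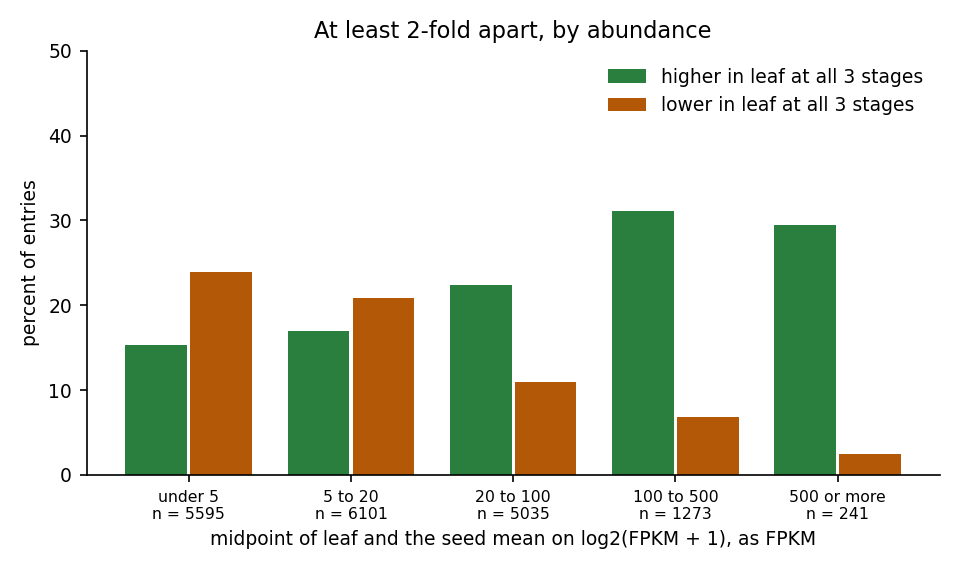
Percent of entries at least 2-fold higher (green) or lower (orange) in leaf at S1, S2 and S3, by the midpoint of leaf and the seed mean on log2(FPKM + 1), expressed as FPKM, with the number of entries under each class. The share lower in leaf goes from 23.9% in the lowest class to 2.49% in the highest, and the share higher from 15.3% to 29.5%.

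More entries were detected in seed alone than in leaf alone, also in each of the 3 scalings. In all, 13887 entries had at least 1 FPKM in leaf and at every seed stage. At least 1 FPKM at all 3 seed stages with leaf below 1 FPKM was found in 1535 entries, and leaf at 1 FPKM or more with all 3 seed stages below in 865. Of the former, 110 were listed at 0 in leaf, 24 of them with at least 10 FPKM at every seed stage. Of the latter, 20 were listed at 0 at all 3 seed stages, and 2 of these reached 10 FPKM in leaf. In all, 576 entries were listed at 0 in any of the 4 columns, 171 of those higher and 110 of those lower in leaf at all 3 stages. Their differences depend on the pseudocount and give no fold.

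Of 4 replication genes named by the study, CDC6 and 3 MCM genes, 3 were at least 2-fold lower in leaf at all 3 stages. Over all entries this share was 17.8%. Each of the 4 had its highest embryogenesis value at S1. They are among the candidate genes described below, which the study chose partly for high expression in JGK 3 seed, so their direction is not independent evidence. CDC6 (Ca_15618), which helps to load the MCM helicase, was at 0.149 FPKM in leaf, 9.54 at S1, 3.67 at S2 and 3.52 at S3. An MCM gene (Ca_09549), encoding a helicase subunit, was at 1.56 FPKM in leaf and 63.9, 24.7 and 25.5 at S1, S2 and S3. A further MCM gene (Ca_15408) was at 0.851 FPKM in leaf against 45.4, 18.2 and 18.4. In these 3 genes leaf was below every seed stage and S1 was far above S2 and S3, which were close to each other. The differences from the seed mean were -2.40, -3.79 and -3.81, respectively, and each gene was more than 2-fold lower in leaf at all 3 stages, although CDC6 came to -0.99 with a pseudocount of 5 FPKM. The last MCM gene (Ca_12014) was at 1.55 FPKM in leaf against 3.90, 2.27 and 2.70, a difference of -0.61. On log2(FPKM + 1) it stayed under 2-fold at every stage, although in FPKM itself S1 was more than 2-fold above leaf. All of these genes except Ca_15408 belong to the cell cycle list described below.

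Most DNA methyltransferase genes followed the same order. Of 6 such genes, 5 were at least 2-fold lower in leaf at all 3 stages, and CaDRM1 was under 2-fold at each, beside 17.8% of all entries lower at all 3 stages. CaCMT3 (Ca_23587), a chromomethylase whose Arabidopsis counterpart maintains CHG methylation, was at 0.308 FPKM in leaf and 41.6, 13.9 and 13.5 at S1, S2 and S3. Its difference of -4.002 from the seed mean was the widest of the 6. CaCMT2 (Ca_17866) was at 1.17 FPKM in leaf and 23.4, 8.56 and 7.32 in seed (-2.53). CaMET1 (Ca_18432), the counterpart of the enzyme that maintains CG methylation, was at 1.34 FPKM in leaf and 11.8, 5.98 and 6.01 in seed (-1.87, and -0.998 with a pseudocount of 5 FPKM). In these 3 genes S1 again exceeded S2 and S3 and leaf was lowest.

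The remaining methyltransferases varied less across the seed stages. CaCMT1 (Ca_20580) was at 1.72 FPKM in leaf and 23.2, 14.8 and 19.5 in seed (-2.87), and the same identifier had a second, weak entry, at most 0.251 FPKM at S1 to S3 and listed at 0 in leaf. CaDRM2 (Ca_03062), of the family that in Arabidopsis methylates DNA de novo under the guidance of small RNAs, was at 6.53 FPKM in leaf and 24.0, 22.7 and 19.96 in seed (-1.62). CaDRM1 (Ca_12577) was at 7.91 FPKM in leaf and 14.4, 11.4 and 11.7 in seed (-0.59). Leaf was thus the lowest column for all 6 genes, by a margin that was smallest for CaDRM1.

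**Figure D4:**
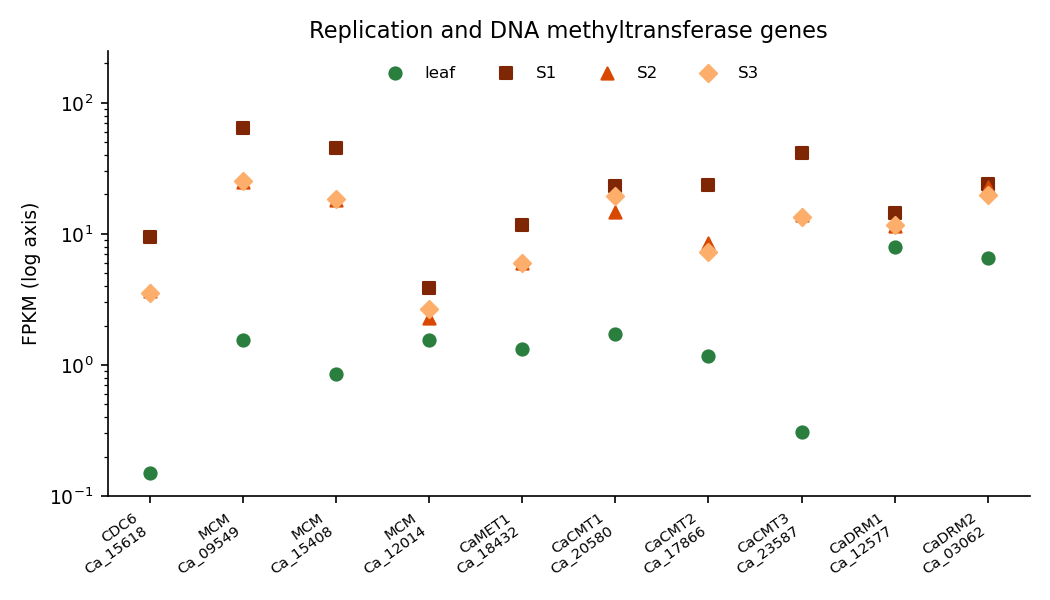
FPKM on a log axis of CDC6, 3 MCM and 6 DNA methyltransferase genes in leaf (circles), S1 (squares), S2 (triangles) and S3 (diamonds), with 1 pooled value per group and no error bar. The leaf point is the lowest of the 4 for every gene, from 0.149 FPKM for CDC6 to 7.91 FPKM for CaDRM1.

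Demethylase genes, whose products excise methylated cytosines, split by level. Ca_17547 was at 3.18 FPKM in leaf and 21.4, 19.9 and 22.4 at S1, S2 and S3 (-2.41), and Ca_20137 was at 1.56 FPKM in leaf and 14.3, 16.3 and 16.3 in seed (-2.69). Of the 3 demethylase genes compared, these 2 were at least 2-fold lower in leaf at all 3 stages and 0 higher, beside 17.8% and 19.1% of all entries. Both were nearly flat over the stages. The identifier Ca_20137 had a second entry with the opposite order, 10.6 FPKM in leaf and 1.99, 0.981 and 0.810 in seed, so the direction for this identifier holds for its more abundant entry only. Ca_08414 was at 1.63 FPKM in leaf and 3.47, 3.24 and 4.44 in seed (-0.84). On log2(FPKM + 1) leaf was at least 2-fold lower than S3 only, although in FPKM itself S1 was also more than 2-fold above leaf. With equal sums the smallest difference of Ca_08414 was -1.05, past 2-fold at all 3 stages. A second entry of Ca_08414, at 1.75 FPKM in leaf and 2.53, 2.13 and 1.90 in seed, was under 2-fold at every stage. The other 3 demethylase genes (Ca_17326, Ca_17329 and Ca_07031) were below 1 FPKM in all 4 columns and were not compared.

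The study named 13 candidate genes for seed size in its text, including CDC6 and the MCM genes. It chose them partly for higher expression in JGK 3 seed than in seed of a small-seeded cultivar at S3 and/or S5. That choice drew on JGK 3 seed expression, including S3, so their direction against leaf is not independent evidence. At all 3 stages 6 were at least 2-fold lower in leaf and 0 higher, beside 17.8% and 19.1% of all entries. On log2(FPKM + 1), 4 were under 2-fold at every stage. An auxin response factor (Ca_10748), a transcription factor of the auxin pathway, was at 0.217 FPKM in leaf and 118, 81.9 and 76.2 at S1, S2 and S3. Its difference of -6.23 was the widest of the 13. A C3HC4 zinc finger gene (Ca_09815), also on the cell cycle list, was at 0.296 FPKM in leaf and 25.6, 9.97 and 11.2 in seed (-3.56). A homeobox gene (Ca_04491), encoding a DNA-binding regulator, was at 1.05 FPKM in leaf and 8.57, 11.5 and 14.9 in seed (-2.60). The homeobox gene had its highest embryogenesis value at S3, whereas the other candidates lower at all 3 stages had theirs at S1.

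For the remaining candidates the 3 stages agreed less. A type-B response regulator (Ca_14780), a transcription factor of cytokinin signalling, was at 11.3 FPKM in leaf and 6.47, 4.38 and 3.89 in seed (1.08). It was at least 2-fold higher than S2 and S3 but not S1, and its difference was 0.95 without S3, 0.59 with equal sums and 0.78 with equal upper quartiles. A GH3 gene (Ca_23631), of the family that conjugates auxin to amino acids, was at 19.7 FPKM in leaf and 30.1, 69.9 and 33.5 in seed (-1.03), past 2-fold at S2 only and at -0.66 without S2. With equal sums its smallest difference was -1.03. The other GH3 gene (Ca_06937) was at 0.0679 FPKM in leaf and 0.00942, 0.618 and 3.27 in seed, so the stages disagreed. On log2(FPKM + 1) only S3 was more than 2-fold above leaf. Leaf, S1 and S2 were all below 1 FPKM, too low to give a fold among them. On the deposited scale neither GH3 gene had a difference shared by all 3 stages at the 2-fold limit.

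A dof zinc finger gene (Ca_09238), of a plant-specific family of transcription factors, was at 11.3 FPKM in leaf and 6.47, 5.16 and 8.81 in seed (0.68). An RNA recognition motif gene (Ca_09981) was at 3.83 FPKM in leaf and 6.00, 8.62 and 8.61 in seed (-0.84). Both were on the same side of leaf at all 3 stages and, on log2(FPKM + 1), under 2-fold at each. In FPKM itself, leaf was more than 2-fold above S2 for Ca_09238 and more than 2-fold below S2 and S3 for Ca_09981. An F-box gene (Ca_01760), of a family of ubiquitin ligase subunits, was at 60.0 FPKM in leaf and 39.5, 62.4 and 81.6 in seed. Its difference of 0.03 had no shared direction, with leaf above S1 and below S2 and S3, and it turned to -0.51 with equal sums, -0.30 with equal upper quartiles and -0.25 without S1.

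The study assigned genes near differentially methylated regions (DMRs) to functions and to seed trait loci, and 6 such lists were followed here. The cell cycle, differentiation, grain filling and desiccation lists come from DMRs between seed stages, and the cell growth and QTL (quantitative trait locus) lists from DMRs between cultivars. They hold only genes that the study listed, and part of them also differed in expression among these seed samples, so their direction is not independent evidence. No role beyond the list was given for the members named below. Lists overlap, and 38 tested genes were in both the cell cycle (28.4%) and differentiation (12.5%) lists and 53 in both the differentiation (17.4%) and cell growth (46.1%) lists.

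Cell cycle genes were lower in leaf more often than all entries. Their median was the furthest below that of all entries among the 6 lists of genes with a DMR, but with all listed members it was -0.80 relative to all entries against -0.86 for cell growth. Of 171 listed genes, 159 had an entry of their own and 134 were compared. At all 3 stages 59 of them (44.0%) were at least 2-fold lower in leaf and 13 (9.7%) higher, beside 17.8% and 19.1% of all entries. With a pseudocount of 5 FPKM, 29 (21.6%) were lower, beside 9.84% of all entries. The median difference was -1.11, against -0.12 over all entries, and it was -1.29 against S1, -0.99 against S2 and -1.10 against S3, so the 3 stages agreed in direction. The median level was 2.73 FPKM in leaf and 10.9, 8.29 and 7.38 FPKM at S1, S2 and S3. Leaf was the lowest of the 4 columns in 98 of the 134 genes and the highest in 24, beside 8079 and 7121 of all 18245 entries. Among the 59 genes lower in leaf, the stage furthest from leaf was S1 in 41 (69.5%), S3 in 14 and S2 in 4, beside S1 in 47.8% of the 3253 entries lower in leaf.

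The cell cycle genes with the widest difference shared by all stages were found in both directions. Ca_14124 was at 0.257 FPKM in leaf and 46.1, 60.2 and 59.4 at S1, S2 and S3 (-5.47). Ca_16862 was at 2.02 FPKM in leaf and 152, 102 and 155 in seed (-5.48). Neither differed most from leaf at S1, unlike 41 of the 59 genes lower in leaf. Ca_07046 was at 35.4 FPKM in leaf and 0.206, 0.388 and 0.934 in seed (4.62), and Ca_17442 was at 19.0 FPKM in leaf and 0.106, 0.0737 and 0.0153 in seed (4.23). Both were below 1 FPKM at every embryogenesis stage. The largest mean difference of the list, 6.54, was in Ca_05030, at 173 FPKM in leaf, 3.12 at S1 and 0.563 at S3 but listed at 0 at S2, and it is named here after its values were seen. Here and in the lists that follow, the genes named were selected for the size and agreement of their differences.

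Cell growth genes were also lower in leaf more often than all entries. Of 157 listed genes, 115 were compared, of which 36 (31.3%) were at least 2-fold lower in leaf at all 3 stages and 7 (6.09%) higher, beside 17.8% and 19.1% of all entries. The median difference was -0.89, with -0.81, -0.83 and -0.80 against S1, S2 and S3. Median levels were 6.51 FPKM in leaf and 16.5, 16.1 and 15.3 in seed, so the median of the list changed little over embryogenesis. Among the 36 genes lower in leaf, S3 was furthest from leaf in 18 and S1 in 11, beside 33.5% for S3 over all entries lower in leaf. Ca_16850 was at 0.561 FPKM in leaf and 103, 133 and 136 in seed (-6.31). Ca_07317 was at 3.62 FPKM in leaf and 232, 161 and 229.6 in seed (-5.47). Leaf was far below all 3 stages in both. In the other direction, Ca_12720 was at 166 FPKM in leaf and 2.35, 0.178 and 0.447 in seed (6.54), and Ca_02311 was at 33.7 FPKM in leaf and 0.180, 0.148 and 0.132 in seed (4.91).

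Grain filling genes were lower in leaf more often than all entries, and those lower in leaf at all 3 stages mostly differed most at S3. Of 79 listed genes, 59 were compared, with 22 (37.3%) at least 2-fold lower in leaf at all 3 stages and 10 (16.9%) higher, beside 17.8% and 19.1% of all entries. The median difference was -0.52, and -0.56, -0.50 and -0.45 against S1, S2 and S3, so over all 59 genes the median was furthest from leaf at S1. Of the 22 genes lower in leaf, S3 was furthest from leaf in 15 (68.2%), S2 in 4 (18.2%) and S1 in 3 (13.6%). Over all entries lower in leaf these shares were 33.5%, 18.7% and 47.8%. Ca_04774 was at 4.62 FPKM in leaf and 153, 125 and 247 in seed (-4.91). Ca_07632 was at 21.6 FPKM in leaf and 155, 165 and 194 in seed (-2.93). Both reached their highest embryogenesis value at S3. Ca_05702 was at 22.2 FPKM in leaf and 0.208, 0.406 and 0.255 in seed (4.17). Ca_08273 was at 2549 FPKM in leaf and 143, 112 and 225 in seed (4.05), the most abundant gene named from this list in leaf although its seed values were high as well.

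Differentiation genes were spread in both directions around a median below that of all entries. Of 403 listed genes, 304 were compared, with 66 (21.7%) at least 2-fold lower in leaf at all 3 stages and 43 (14.1%) higher. The median difference was -0.52, and -0.49, -0.36 and -0.39 by stage. Of all entries, 17.8% were lower and 19.1% higher. With a pseudocount of 5 FPKM, 32 genes (10.5%) were lower, beside 9.84% of all entries. Ca_20649 was at 0.887 FPKM in leaf and 141, 175 and 160.3 in seed (-6.40). Ca_11363 was at 2.63 FPKM in leaf and 192, 168 and 231 in seed (-5.76). Ca_06411 was at 1230.2 FPKM in leaf and 21.9, 25.9 and 17.8 in seed (5.77). Ca_15192 was at 65.3 FPKM in leaf and 0.60, 0.193 and 1.09 in seed (5.39).

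For desiccation genes the list median changed sign among the 3 stages, although many single genes differed from leaf in the same direction at all 3. Of 86 listed genes, 65 were compared, with 19 (29.2%) at least 2-fold higher in leaf at all 3 stages and 15 (23.1%) lower, beside 19.1% and 17.8% of all entries. With a pseudocount of 5 FPKM, 5 (7.69%) were lower, beside 9.84%. The median difference was 0.09, but 0.43 against S1, -0.19 against S2 and -0.11 against S3. It was -0.13 without S1, -0.50 with equal sums and -0.20 with equal upper quartiles. These 2 scalings also moved the median of all entries, to -0.58 and -0.41. Relative to all entries the list median was 0.21 as deposited, 0.08 and 0.21 with these scalings, and -0.03 without S1. Since this median was small and its sign rested on S1, no direction can be given for the list. Of the 19 genes higher in leaf, S3 was furthest from leaf in 14 (73.7%), beside 30.6% of all entries higher in leaf. Of the 15 lower in leaf, S1 was furthest in 7 (46.7%) and S3 in 3. Over all entries lower in leaf, S1 was furthest in 47.8% and S3 in 33.5%, so the S1 share of the list was close to the background. Ca_04405, also on the QTL list, was at 1282 FPKM in leaf and 7.69, 0.925 and 1.68 in seed (8.50). Ca_23903 was at 387 FPKM in leaf and 7.11, 1.40 and 0.556 in seed (6.96). Both had their highest embryogenesis value at S1. Ca_20276 was at 1.12 FPKM in leaf and 142, 107 and 178 in seed (-6.05), and Ca_02435 was at 10.04 FPKM in leaf and 219.8, 96.0 and 104 in seed (-3.57).

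Genes at seed trait loci were close to the background. Of 878 listed genes, 672 were compared, with 140 (20.8%) at least 2-fold lower in leaf at all 3 stages and 107 (15.9%) higher, beside 17.8% and 19.1% of all entries. With a pseudocount of 5 FPKM, 77 (11.5%) were lower, beside 9.84%. The median difference was -0.17, and -0.20, -0.18 and -0.14 by stage, and it was -0.05 relative to the median of all entries. Apart from Ca_04405, the gene with the widest shared difference above seed was Ca_11140, at 579 FPKM in leaf and 3.38, 0.745 and 0.468 at S1, S2 and S3 (8.02). In the other direction, Ca_06315 was at 3.73 FPKM in leaf and 893, 364 and 648 in seed (-6.98), ahead of the auxin response factor Ca_10748 described above.

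**Figure D5:**
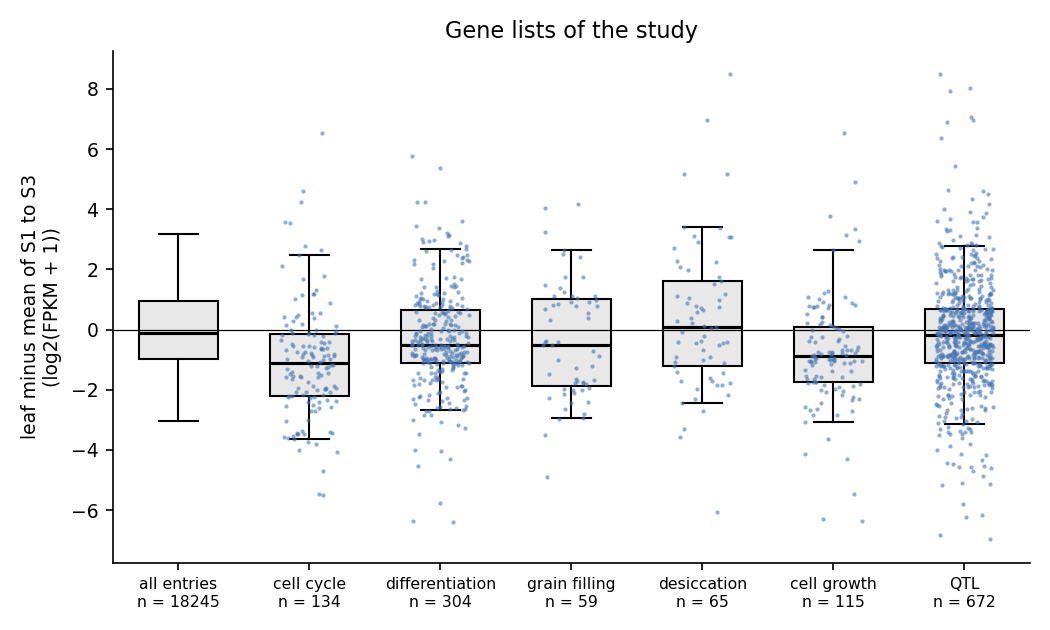
Difference of leaf from the mean of S1 to S3 on log2(FPKM + 1) for all entries and 6 gene lists, with the median (thick line), quartiles (box), 5th to 95th percentile (whiskers) and single genes (points). Medians run from -1.11 for the cell cycle list to 0.09 for the desiccation list, whose sign turns without S1 and with equal sums or upper quartiles.

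Outside these lists, the identifiers had no annotation in the sources used here. The widest difference shared by all stages was in Ca_14546, at 1011 FPKM in leaf and 5.96, 0.919 and 0.466 at S1, S2 and S3 (8.55). In the other direction it was in Ca_10933, at 1.22 FPKM in leaf and 586, 550.3 and 536 in seed (-7.97), a nearly even level over embryogenesis. The most abundant leaf entry at least 4-fold above all 3 stages joined Ca_03007, Ca_03008 and Ca_03009 in 1 value, at 21814 FPKM in leaf and 369, 128 and 174 in seed (6.75). The most abundant seed entry at least 4-fold above leaf at all 3 stages was Ca_00694, at 335 FPKM in leaf and 2804, 1695 and 3543 in seed (-2.93). Leaf thus also carried a level of Ca_00694 far above the median. The same entry was listed at 0 FPKM at S4 and was at 5280 FPKM at S5, and the cause of this gap was not tested.

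The entries with the widest disagreement among stages changed strongly between S1 and S2. Ca_18340 was at 4.14 FPKM in leaf, 1.06 at S1, 370.3 at S2 and 1439 at S3. Ca_07664 was at 88.5 FPKM in leaf, 2.02 at S1, 95.2 at S2 and 435 at S3. In both, leaf was more than 2-fold above S1 and more than 2-fold below S3, so a mean over the stages hides the order. For Ca_07664 the difference from the mean was 0.83 with all 3 stages and -1.20 without S1.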

How the data were processed

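RNA-seq libraries of leaf, S1, S2 and S3 of JGK 3 (3 samples per group, grouped by the sample titles) were compared. The authors cleaned the reads (NGS QC Toolkit), aligned them with TopHat to the kabuli chickpea genome, and deposited FPKM values from Cufflinks, 1 column per group, as the labels and published methods state. How the 3 samples were pooled and how columns were scaled is not stated, and the versions of TopHat and Cufflinks are not given in the sources used here. Read depth is therefore unknown, and no interval for counting error was possible.

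Each table had 35234 entries. The 7268 without an identifier were left out, and the 1168 identifiers on several entries were matched by order of occurrence. For gene lists and named genes, the entry with the highest mean over the 4 columns was used. Of 28269 identifiers, 0 were found in the RefSeq name table, so no sequences or coordinates are shown. Values were compared as log2(FPKM + 1), computed here from the deposited FPKM, with a minimum of 1 FPKM in any column and a limit of 2-fold. This scale understates changes of low genes. The limma test foreseen for replicate columns was not run. Calculations used Python 3.11.15, pandas 2.3.3 and numpy 2.4.6 and were tested on simulated data.

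Members, lists and tests were chosen with earlier results of these data known. Lists were members that the study gave with a DMR. Named genes were those that the study names, 12 for DNA methylation or demethylation and 13 candidates. In each list they were the 2 members per direction above 0 in all 4 columns whose smallest difference over the stages was largest. Outside the lists, they were the entry with the largest such difference and the most abundant entry at least 4-fold apart, per direction, and the 2 entries with the widest opposite differences. Alternatives were pseudocounts of 0.1 and 5, a minimum of 5 FPKM or none, a 4-fold limit, 3 scalings of the columns, leaving out each stage, leaving out entries listed at 0 or repeated, averaging FPKM before the log, and other list memberships.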

Additional observations from a re-analysis of the deposited data

Results flagged for a closer look

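Entries without a gene identifier, which no comparison above used, also differed between leaf and the embryogenesis stages. Of 7268 such entries, 2898 reached 1 FPKM in any of the 4 columns. At all 3 stages 610 of them (21.0%) were at least 2-fold higher in leaf and 305 (10.5%) at least 2-fold lower, beside 19.1% and 17.8% of the entries with an identifier. They held 3.45% of the summed FPKM in leaf and 3.44%, 4.02% and 4.52% at S1, S2 and S3.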

How the results depend on the processing

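No paired analysis was possible because the deposited columns pool the 3 numbered samples of a group. The medians of 5 lists kept their sign relative to all entries, and that of desiccation, 0.21 as deposited, was -0.03 without S1 and between 0.08 and 0.26 otherwise. With a 4-fold limit, entries higher and lower against the mean numbered 2179 and 1956, and at all 3 stages 1664 and 1308. With a pseudocount of 5, the lower counts were 2831 against the mean and 1796 at all 3 stages. With columns scaled to the same sum, 4927 entries were lower at all 3 stages. The other 47 recomputed counts stayed within 1.5 times. Those with no minimum are among them and could not change, since on log2(FPKM + 1) an entry below 1 FPKM in all 4 columns cannot reach 2-fold. List medians are given here relative to the median of all entries, as deposited -0.99 for cell cycle, -0.40 for differentiation and grain filling, -0.77 for cell growth and -0.05 for QTL. Cell cycle was -1.37 with a pseudocount of 0.1, -0.62 with 5, -1.40 with a minimum of 5 FPKM and -0.80 with all listed members. Differentiation was -0.19 with a pseudocount of 5 and -0.31 with the same sum or upper quartile. Grain filling was -0.55 and -0.27 with pseudocounts of 0.1 and 5, -0.34 and -0.33 with the same sum and upper quartile, -0.60 with all listed members and -0.71 with members listed between cultivars, an alternative chosen after seeing the data. Cell growth was -0.96 and -0.50 with pseudocounts of 0.1 and 5, -0.89 with a minimum of 5 FPKM, -0.74, -0.76 and -0.80 with the same sum, upper quartile and median ratio, -0.72 and -0.80 without S1 and S2, and -0.86 with all listed members. QTL was -0.11 with a minimum of 5 FPKM. The causes were not tested. With a pseudocount of 5, CDC6 (Ca_15618) and CaMET1 (Ca_18432) came to -0.99 and -0.998, just under 2-fold, so calls of genes at a few FPKM rest on the pseudocount.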

Other observations

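Some genes far higher in leaf than at S1 to S3 had high values again in the last seed stages of the series. Ca_06411 of the differentiation list, at 1230.2 FPKM in leaf, was at 442 FPKM at S6 and 486 at S7. Ca_05702 of the grain filling list, at 22.2 FPKM in leaf, was at 32.0 and 29.3 FPKM. The joint entry of Ca_03007, Ca_03008 and Ca_03009 reached 5479 and 3953 FPKM. Other genes of the same lists did not return, since Ca_08273 of the grain filling list, at 2549 FPKM in leaf, was at 0.137 and 0.0573 FPKM at S6 and S7. Genes lower in leaf than at S1 to S3 also differed in their last stages. CaCMT3 (Ca_23587) was at 0.0126 FPKM at S6 and 0.0554 at S7, below its 0.308 FPKM in leaf, whereas CaDRM2 (Ca_03062) stayed at 21.5 and 25.3 FPKM, above its 6.53 FPKM in leaf.

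Identifiers with several entries did not always give the same direction. Of 666 identifiers with at least 2 compared entries, 89 had all their entries at least 2-fold higher in leaf at all 3 stages, 53 had all lower, and 9 had entries in opposite directions, as in the demethylase Ca_20137.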
